A study of Mus musculus with 18 samples.

Results

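The 40 genes described here are type I interferon-stimulated genes, the antiviral genes that most cells switch on after an interferon-α or interferon-β signal. They were chosen by name from a fixed list, with letter case ignored, and all 40 were found among the 20298 genes of the RNA-seq table. RNA was measured in mouse monocytes (Ly6C+ CCR2+, enriched from bone marrow with an isolation kit) of C57BL/6 wild-type mice (WT) and of STAT5 tetramer-deficient mice (DKI), to ask what STAT5 tetramers contribute to monocyte differentiation. DKI mice have a C57BL/6J background, as the study's methods say. They carry knock-in changes in both *Stat5a* and *Stat5b*, so that STAT5 can still form dimers but not tetramers. Cells were untreated on day 0 or cultured with 20 ng/mL GM-CSF, the growth factor that drives monocytes toward dendritic cells, for 3 or 6 days, after which they are called monocyte-derived cells (MDCs). Each of the 6 groups (WT and DKI on days 0, 3 and 6) held 3 libraries. No group was cultured without GM-CSF, so time in culture and GM-CSF cannot be told apart, and the knock-in is present in every cell of the animal from birth.

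Type I interferon binds the IFNAR1 and IFNAR2 receptor chains, whose kinases JAK1 and TYK2 phosphorylate STAT factors. STAT2 and IRF9 take part in the ISGF3 complex, which binds the interferon-stimulated response element (ISRE) in front of its target genes. The induced proteins recognise viral nucleic acid, degrade viral RNA, block translation or entry, and adjust the signal itself; IRF7, itself an induced factor, amplifies the production of interferon.

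The ISRE was looked for in front of the members because it is the feature through which these genes are known to be switched on together. RefSeq promoter windows, which run from 250 bases before to 50 bases after a start site (GRCm38.p6, the mm10 build), were matched for 30 of the 40 members. The letters searched, on both strands, were GAAA, any 2 bases and GAAA again, which read TTTC, any 2 bases and TTTC on the other strand. They were found in 15 of the 30 members (50%) and in 3.99% of the 27025 genes with such windows. The 5 stretches shown here come from members of several roles and end at or before the start site; capitals mark the bases of matches, which may overlap, and each is written 5′ to 3′ on the gene's own strand.
Isg15: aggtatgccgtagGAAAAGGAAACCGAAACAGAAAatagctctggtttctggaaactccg
Ifit1: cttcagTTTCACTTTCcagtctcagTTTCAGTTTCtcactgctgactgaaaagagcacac
Rsad2: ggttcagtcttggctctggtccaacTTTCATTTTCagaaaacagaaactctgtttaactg
Bst2: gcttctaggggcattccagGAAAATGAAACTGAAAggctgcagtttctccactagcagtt
Oas1g: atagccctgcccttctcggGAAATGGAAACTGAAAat
The *Isg15* stretch lies at chr4:156200850-156200909 on the minus strand, and 3 matches run into each other there. The *Ifit1* stretch (chr19:34640779-34640838, plus strand) holds 2 separate matches. The *Rsad2* stretch (chr12:26456538-26456597, minus strand) holds 1 match, and the *Bst2* stretch (chr8:71537562-71537621, minus strand) holds 2 that overlap. The *Oas1g* stretch (chr5:120887614-120887650, minus strand) is part of a run of 73 identical bases shared with the window of its neighbour *Oas1a*. The members without a match in their window were *Cmpk2*, *Dtx3l*, *Herc6*, *Ifi35*, *Ifi44*, *Ifit2*, *Isg20*, *Lgals3bp*, *Oasl1*, *Oasl2*, *Phf11d*, *Samd9l*, *Sp100*, *Trim25* and *Xaf1*. No window was matched for *Ifi204*, *Zbp1*, *Dhx58*, *Oas2*, *Mx1*, *Mx2*, *Usp18*, *Parp9*, *Parp14* and *Rtp4*. A second motif, GAS (TTCNNNGAA, the STAT dimer site, which reads the same on both strands), was found in 7 of the 30 windows (23.3%) and in 9.55% of all genes. A match is a description of letters and not of binding.

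The 40 members lie on 14 chromosomes. Several sit in clusters: the OAS genes on chromosome 5, the IFIT genes on chromosome 19, *Mx1* and *Mx2* and the *Parp14*, *Dtx3l* and *Parp9* group on chromosome 16, and the divergent *Rsad2* and *Cmpk2* pair on chromosome 12. *Dhx58* lies 76.5 kb from the *Stat5* locus on chromosome 11 and *Ifi35* lies 563 kb from it, so the chromosome segment carrying the knock-in may hold linked differences there; this was not tested. Reads of near copies (*Oas1a* and *Oas1g*; *Ifi204* and *Ifi205*; the IFIT genes) and of overlapping genes (*Parp9* with *Dtx3l*, *Ifit1* with *Ifit1bl1*, *Rtp4* with *Masp1*, *Eif2ak2* with *Gm26637*) could have been split or shared by the counting, and their levels are uncertain to that extent.

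Levels are in RPKM (reads per kilobase of transcript, scaled to the mapped reads of the library) as the authors deposited them; depth estimated from the lowest values ran from 29.5 to 43.2 M reads. At the lowest depth, 3 reads on a 1 kb gene equal 0.102 RPKM, so values near or below that are at the detection limit. Within groups, libraries correlated at 0.963 to 0.989 across genes. One library stood apart for the members: DKI day 3 replicate 1 was the highest of all 18 libraries for 39 of the 40 members, whereas it was the highest for 7.54% of all genes. The exception was *Trim25*, which was highest in DKI day 0 replicate 2. The names of 4 libraries, replicate 1 of days 3 and 6 in both genotypes, carry the year 2015 and those of the other 14 carry 2016. The labels name liver as the tissue, but all 5 hepatocyte markers were below 0.1 RPKM in all libraries.

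The map of all 40 members by library shows that the DKI MDC libraries, replicate 1 above the others, held the high values on days 3 and 6.

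**Figure D1:**
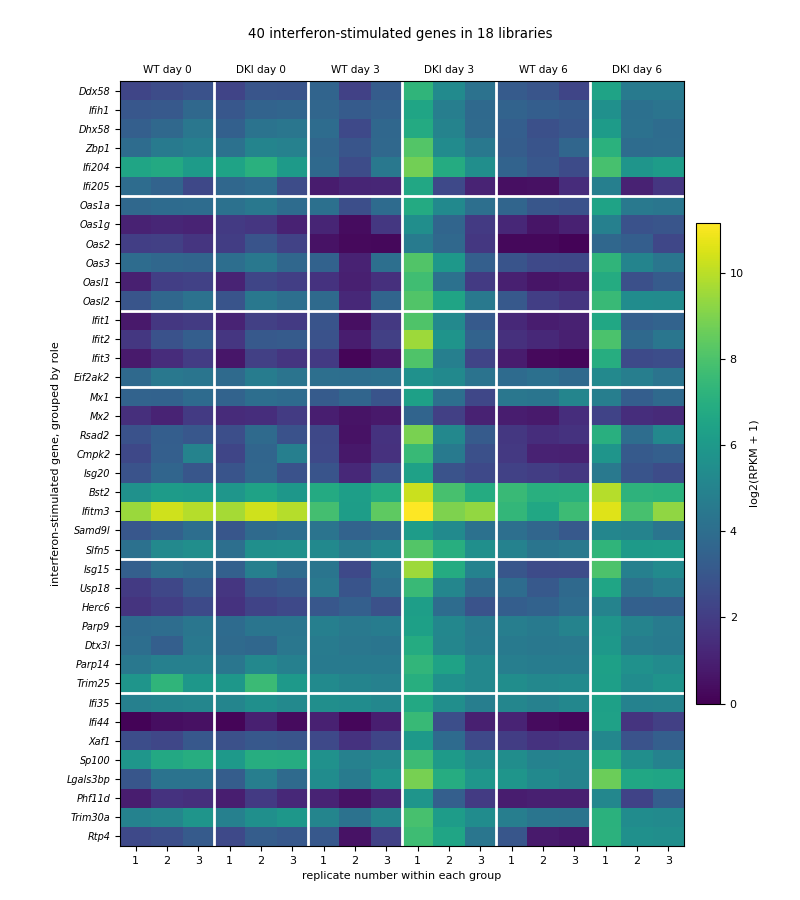
The level of each of the 40 members (rows, grouped by role as in the text) is shown as log2(RPKM + 1) by colour in each of the 18 libraries (columns, 3 per group). DKI day 3 replicate 1 holds the brightest column, and for 39 of the 40 members it is the highest library.

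On day 0 no member was called between the genotypes. Mean levels of single members ran from 0.29 RPKM (*Ifi44*, a gene of unsettled antiviral function) to 995 RPKM (*Ifitm3*, a membrane protein that blocks virus entry) in WT monocytes, and from 0.45 to 1021 RPKM for the same genes in DKI monocytes. Over the members, the median of these means was 11.9 RPKM for WT cells and 13.8 RPKM for DKI cells. None of the 38 members that passed the filter was called (a fold above 1.5 with a Benjamini-Hochberg adjusted p under 0.05, by limma), and none had an unadjusted p under 0.05. Of all 9179 genes, 0% were called and 44 (0.479%) had an unadjusted p under 0.05. With all 18 libraries in the fit no member was called, beside 6 of 10417 genes. The median log2 difference of the members, DKI minus WT, was 0.12 beside -0.00 for all genes, and 36 of the 38 were positive beside 47.9% of all genes. That direction rested on single libraries: without WT day 0 replicate 1 the median was -0.05 with 14 of 38 positive, and without DKI day 0 replicate 2 it was -0.03 with 15 of 36. Without DKI day 0 replicate 1 it was 0.36 with 37 of 38. *Oas1a* alone had all DKI libraries above all WT libraries, with 17.2, 20.9 and 14.6 RPKM against 12.7, 14.1 and 14.5 RPKM, where 0.719% of all genes did so.

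On day 3 all 40 members had a positive log2 difference between DKI and WT MDCs, with a median of 1.98 beside -0.11 for all genes, of which 38.6% were positive. The differences ran from 0.32 (*Ifi35*, an interferon-induced leucine zipper protein) to 4.33 (*Ifit2*). Despite that size, 1 member passed the test, *Oas2*, beside 3.21% of all genes called higher, and 24 of the 40 had an unadjusted p under 0.05 in a test where 26.5% of all genes did. *Oas2* is 1 of 8 members that passed the filter (a mean above 2 RPKM in at least 1 group) through the DKI libraries alone, so a difference was built into its selection. None of the 32 members also above 2 RPKM in WT was called, and none of the 40 without the filter (0.971% of all genes called higher). In 24 members, 6 of them among those 8, all DKI libraries lay above all WT libraries, where 13.4% of all genes did so. The spread between the DKI libraries was wide: the median over members of the SD was 1.71 on the log2 scale, and replicate 1 exceeded replicate 3 by a factor of 2.73 (*Eif2ak2*) to 188 (*Ifi44*), with a median of 10.5.

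On day 6 the log2 difference was positive for 39 of the 40 members, with a median of 1.90 beside -0.17 for all genes. The exception was *Mx1*, of the Mx family of GTPases. The 7 members called were higher in DKI MDCs: *Rtp4*, *Oasl2*, *Rsad2*, *Ifi204*, *Oas2*, *Oas1g* and *Slfn5*, beside 2.72% of all genes called higher. *Oas2* and *Oas1g* are among 11 members that passed the filter through the DKI libraries alone, to which the same applies. The other 5 called are among the 29 also above 2 RPKM in WT, and without the filter *Oas2* alone was called (0.377% of all genes called higher). In all, 28 of the 40 had an unadjusted p under 0.05, beside 28.2% of all genes. In 30 members, 9 of them among those 11, all DKI libraries lay above all WT libraries, where 10.6% of all genes did so. Replicate 1 was again the highest DKI library for all 40 members, by a median factor of 4.03 over replicate 2.

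Libraries of the same number shared deviations across the genotypes, so each DKI library was also set against the WT library of its number. On day 0, 20, 40 and 12 of the 40 members were higher in the DKI library of pairs 1, 2 and 3, with median log2 differences of 0.00, 0.39 and -0.05. On day 3 these counts were 40, 40 and 32, with medians of 3.47, 2.39 and 0.32. On day 6 they were 40, 38 and 34, with medians of 2.99, 1.30 and 1.53. Pair 3 of day 3 had the smallest differences of the 6 MDC pairs. Among all genes, the DKI library was the higher in 34.6% to 51.9% of genes over these 6 pairs.

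**Figure D2:**
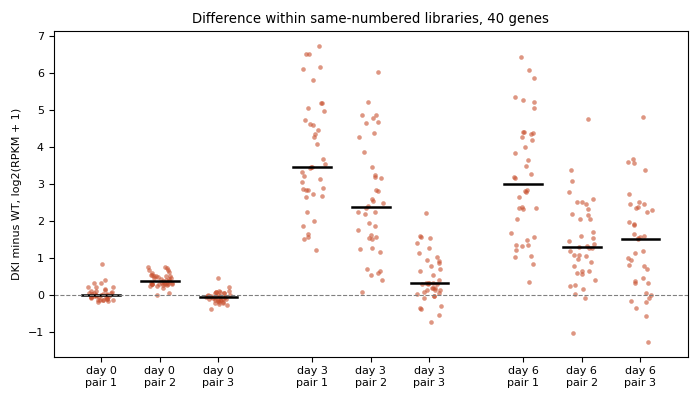
Each point is 1 of the 40 members and gives the difference DKI minus WT in log2(RPKM + 1) between libraries with the same replicate number (x axis, by day and pair); black bars are medians. The day 0 medians are 0.00, 0.39 and -0.05, with all points of pair 2 above 0, and the points lie highest in pair 1 of day 3 (median 3.47) and pair 1 of day 6 (median 2.99).

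With the replicate number as a block, no member was called on day 3, where *Oas2* had an adjusted p of 0.054 by limma and 2.7% of all genes were called higher. On day 6 the block raised the number of members called from 7 to 14, beside 2.9% of all genes. The members gained were *Samd9l* (limma adjusted p with the block = 0.022), *Ddx58* (0.037), *Cmpk2* (0.039), *Oas1a* (0.041), *Oas3* (0.045), *Isg15* (0.047) and *Lgals3bp* (0.049). Of these, *Cmpk2* is among the 11 members that passed the day 6 filter through the DKI libraries alone, so being higher was built into its selection. With all 18 libraries in one fit, 17 members were called on day 3 (5.33% of all genes called higher) and 13 on day 6 (4.88%). Without DKI day 3 replicate 1, none was called on day 3 (3.36% of all genes called higher), 38 of 40 differences were positive and their median was 1.14. Without DKI day 3 replicate 3, 8 were called (1.95% of all genes). Without DKI day 6 replicate 1, 14 of the 38 members tested were called (1.21% of all genes), and the median was 1.29. Within the libraries whose names carry 2016, which leaves replicates 2 and 3, the day 3 median was 1.31 with no member called (1.68% of all genes called higher), and the day 6 median was 1.46 with 5 called (0.265%). The 2015 libraries hold 1 pair per day, whose values are those of pair 1 above.

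Among the sensors of foreign nucleic acid, *Ifi204*, a member of the p200 family that recognises DNA, had the highest mean level over the 18 libraries and in each group but WT day 6. In WT its levels were 92.4, 108 and 68.2 RPKM on day 0, 13, 4.95 and 21.1 on day 3, and 10.6, 7.2 and 4.92 on day 6, for replicates 1, 2 and 3 in that order. In DKI they were 87.5, 134 and 67.5 RPKM on day 0, 443, 115 and 44.3 on day 3, and 242, 56.2 and 71.1 on day 6. The genotypes overlapped on day 0 and did not on days 3 and 6. *Ifi204* was higher in DKI by 3.60 ± 0.57 (log2, SE) on day 6 (limma adjusted p = 0.024), while the day 3 difference of 3.43 ± 0.88 did not pass (adjusted p = 0.068). From day 0 to day 3 in WT cells, *Ifi204* fell by 2.86 on the log2 scale (limma adjusted p = 0.0028), with no overlap between the days.

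*Ifi205*, from the same family, had 14.2, 10.8 and 4.28 RPKM in WT on day 0 and 0.826, 1.24 and 1.27 on day 3. The DKI levels were 12.3, 14.4 and 5.12 RPKM on day 0, 102, 4.46 and 1.17 on day 3. On day 6 the levels were 0.390, 0.404 and 1.68 RPKM in WT and 27.5, 1.11 and 2.36 in DKI. The drop of 2.23 on the log2 scale from day 0 to day 3 passed in WT (limma adjusted p = 0.0037). *Ifi205* entered that test through the day 0 libraries alone, so a fall was built into its selection. On both MDC days the highest DKI level was that of replicate 1.

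*Ddx58*, which encodes the RNA sensor RIG-I, had 4.07, 5.10 and 6.12 RPKM in WT on day 0, 11.2, 3.42 and 8.61 on day 3, and 8.33, 6.71 and 3.97 on day 6. In DKI it had 3.96, 6.64 and 6.53 RPKM on day 0, 156, 39.1 and 17.4 on day 3, and 88.7, 22.3 and 23.3 on day 6. All DKI MDC libraries lay above all other libraries of both genotypes. *Ddx58* rose in DKI cells from day 0 to day 3 by 2.89 ± 0.73 (log2, SE; limma adjusted p = 0.024). The other sensors, *Ifih1* (MDA5), *Dhx58* (LGP2) and *Zbp1* (a sensor of Z-form nucleic acid), were not called between genotypes, with log2 differences on day 3 of 1.57, 1.86 and 2.53.

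The OAS family makes or resembles the enzymes that produce 2-5A, the activator of the RNA-degrading RNase L. *Oas2* was at 3.21, 3.32 and 2.34 RPKM in WT on day 0, then at 0.477, 0.220 and 0.185 on day 3 and 0.192, 0.181 and 0.0940 on day 6. In DKI it was at 3.12, 6.39 and 3.60 RPKM on day 0, 23.9, 12.5 and 2.52 on day 3, and 12.3, 8.94 and 4.16 on day 6. The DKI libraries were all above the WT libraries on both MDC days. *Oas2* was higher in DKI by 3.04 ± 0.68 on day 3 (log2, SE; limma adjusted p = 0.049) and by 2.93 ± 0.36 on day 6 (adjusted p = 0.014). In WT cells it fell by 1.61 on the log2 scale from day 0 to day 3 (limma adjusted p = 0.0014), where it passed the filter through day 0 alone. These differences on log2(RPKM + 1) understate the fold of a gene this low.

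*Oasl2*, an OAS-like protein, had the highest mean of the family over the 18 libraries and in the DKI MDCs, while *Oas1a* was higher in WT cells and on day 0. *Oasl2* had 6.68, 12.1 and 17.4 RPKM in WT on day 0, 13.3, 1.45 and 11.4 on day 3, and 7.72, 3.17 and 2.31 on day 6. In DKI its levels were 6.48, 21.4 and 15.7 RPKM on day 0, 276, 90.1 and 21.7 on day 3, and 186, 42.5 and 41.4 on day 6. The genotypes did not overlap on days 3 and 6. *Oasl2* was higher in DKI by 3.83 ± 0.66 on day 6 (log2, SE; limma adjusted p = 0.028), whereas the 3.46 ± 1.05 of day 3 did not pass (adjusted p = 0.10).

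*Oas1g* was lower throughout, with 1.07, 1.32 and 1.19 RPKM in WT on day 0, 1.21, 0.307 and 2.51 on day 3, and 1.33, 0.549 and 1.01 on day 6. The DKI libraries had 2.71, 2.37 and 1.09 RPKM on day 0, 44.6, 11.4 and 2.69 on day 3, and 28.4, 6.01 and 6.70 on day 6. It was higher in DKI on day 6 by 2.59 ± 0.56 (log2, SE; limma adjusted p = 0.044). Its neighbour *Oas1a*, whose promoter window shares the run described above, had a day 6 difference of 1.98 that did not pass (adjusted p = 0.082). *Oas3* and *Oasl1*, with differences of 2.99 and 3.47 on day 6, were not called either.

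The IFIT proteins bind viral RNA and hold back its translation, and PKR (*Eif2ak2*) stops translation after binding double-stranded RNA. *Ifit2* had the highest mean of these genes over the 18 libraries and in the DKI MDCs, while *Eif2ak2* was higher in WT cells and on day 0. *Ifit2* had 2.46, 6.04 and 9.15 RPKM in WT on day 0, 6.05, 0.855 and 3.39 on day 3, and 1.95, 1.44 and 0.979 on day 6. The DKI libraries had 2.44, 7.72 and 8.22 RPKM on day 0, 746, 53.0 and 10.6 on day 3, and 253, 12.9 and 19.8 on day 6. All DKI MDC libraries were above all WT MDC libraries, yet DKI replicate 1 on day 3 was far above the other DKI libraries. The log2 differences of 4.33 ± 1.45 on day 3 and 4.11 ± 1.04 on day 6 did not pass (limma adjusted p = 0.13 and 0.063).

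*Ifit1* had 0.713, 2.46 and 2.88 RPKM in WT on day 0, 6.46, 0.393 and 2.66 on day 3, and 1.46, 0.874 and 1.04 on day 6. In DKI the levels were 1.17, 3.37 and 2.69 RPKM on day 0, 271, 37.3 and 7.84 on day 3, and 99.0, 9.40 and 10.7 on day 6. Within DKI no day 3 library overlapped day 0. *Ifit1* rose in DKI cells from day 0 to day 3 by 3.79 ± 1.14 (log2, SE; limma adjusted p = 0.042), while in WT cells the value was 0.24. *Ifit3* and *Eif2ak2* had day 3 differences between genotypes of 4.14 and 1.0, neither of them called.

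Of the direct antiviral effectors, *Ifitm3* was the most abundant of all 40 members. In WT it was at 714, 1296 and 977 RPKM on day 0, 228, 72.9 and 338 on day 3, and 167, 98.4 and 202 on day 6. In DKI it was at 806, 1304 and 952 RPKM on day 0, 2284, 516 and 656 on day 3, and 1542, 238 and 635 on day 6. The WT MDC libraries were all below the day 0 libraries, and the DKI MDC libraries spread around the day 0 levels. From day 0 to day 3 in WT cells, *Ifitm3* fell by 2.43 on the log2 scale (limma adjusted p = 0.011), beside a value of -0.12 ± 0.57 in DKI cells. Its differences between genotypes, 2.36 on day 3 and 2.04 on day 6, did not pass (limma adjusted p = 0.12 and 0.11).

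*Rsad2* encodes viperin, which makes a chain-terminating nucleotide. It had 6.09, 9.05 and 7.23 RPKM in WT on day 0, 4.31, 0.449 and 2.08 on day 3, and 2.55, 1.74 and 2.12 on day 6. Its DKI levels were 5.45, 13.4 and 6.04 RPKM on day 0, 487, 35.7 and 8.26 on day 3, and 132, 14.7 and 36.1 on day 6. The genotypes were apart on both MDC days. *Rsad2* was higher in DKI by 3.77 ± 0.72 on day 6 (log2, SE; limma adjusted p = 0.034) and in WT cells it fell by 1.54 on the log2 scale from day 0 to day 3 (adjusted p = 0.027).

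*Cmpk2*, the mitochondrial nucleotide kinase next to *Rsad2*, had 4.42, 9.26 and 31.2 RPKM in WT on day 0, 4.48, 0.642 and 2.04 on day 3, and 2.59, 1.12 and 1.02 on day 6. The DKI levels were 3.98, 11.6 and 27.4 RPKM on day 0, 180.0, 22.9 and 5.66 on day 3, and 56.1, 7.83 and 9.54 on day 6. On day 0 its spread was shared by same-numbered libraries of both genotypes. In WT cells it fell by 2.01 on the log2 scale from day 0 to day 3 (limma adjusted p = 0.049), although WT day 3 replicate 1 overlapped the day 0 range.

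*Slfn5*, of the Schlafen family, was higher in DKI on day 6 by 1.89 ± 0.37 (log2, SE; limma adjusted p = 0.036), with 156, 65.9 and 68.2 RPKM against 30.0, 19.3 and 21.7. *Mx1* went the other way on day 6, with 26.5, 8.95 and 12.9 RPKM in DKI against 20.3, 19.2 and 32.3 in WT. Its groups overlapped, and its difference of -0.64 did not pass (limma adjusted p = 0.34). *Mx2*, *Isg20* (an exonuclease), *Bst2* (tetherin, which holds budding virus at the cell surface) and *Samd9l* were not called between genotypes, with day 6 differences of 0.61, 1.36, 0.84 and 1.19.

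*Isg15*, a ubiquitin-like protein attached to other proteins during the response, had 9.41, 17.1 and 14.5 RPKM in WT on day 0, 19.3, 4.57 and 20.1 on day 3, and 6.99, 4.87 and 5.02 on day 6. DKI cells had 9.80, 27.2 and 14.1 RPKM on day 0, 736, 115 and 29.6 on day 3, and 265, 28.3 and 39.2 on day 6. No DKI MDC library overlapped the WT MDC libraries. The differences, 3.37 ± 1.16 on day 3 and 3.37 ± 0.80 on day 6 (log2, SE), did not pass (limma adjusted p = 0.14 and 0.053), and with the replicate block the day 6 value passed (adjusted p = 0.047).

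*Usp18*, the protease that removes ISG15 and restrains the receptor, had 2.69, 4.12 and 7.89 RPKM in WT on day 0, 21.9, 6.5 and 16.1 on day 3, and 14.2, 7.76 and 13.1 on day 6. In DKI it had 2.38, 6.07 and 7.30 RPKM on day 0, 190.4, 33.6 and 12.9 on day 3, and 93.8, 17.7 and 23.6 on day 6. It rose from day 0 to day 3 in both genotypes, by 1.38 ± 0.48 in WT (limma adjusted p = 0.049) and by 2.95 ± 0.92 in DKI (adjusted p = 0.046). The other modifiers were *Herc6*, the ISG15 ligase, *Parp9*, *Dtx3l* and *Parp14*, which handle ADP-ribose and ubiquitin, and *Trim25*, which activates RIG-I. None of them was called between genotypes, with differences of 0.72 to 1.75 on day 3 and 0.35 to 1.08 on day 6.

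Among the remaining members, *Rtp4*, a chaperone of membrane receptors, had the largest difference of those called. Its levels were 4.57, 5.35 and 8.18 RPKM in WT on day 0, 7.43, 0.439 and 3.44 on day 3, and 6.92, 0.770 and 0.609 on day 6. In DKI they were 4.53, 8.72 and 7.49 RPKM on day 0, 204, 93.0 and 19.6 on day 3, and 145, 46.9 and 44.1 on day 6. All DKI MDC libraries stood above all other libraries. *Rtp4* was higher in DKI by 4.59 ± 0.73 on day 6 (log2, SE; limma adjusted p = 0.025) and rose in DKI cells from day 0 to day 3 by 3.25 ± 0.79 (adjusted p = 0.021). Its day 3 difference between genotypes, 4.28, did not pass.

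*Lgals3bp*, a secreted galectin-binding glycoprotein, had 6.88, 18 and 17.9 RPKM in WT on day 0, 41.7, 24.1 and 50.7 on day 3, and 55.9, 38.1 and 31.2 on day 6. The DKI libraries had 8.91, 26.2 and 13.7 RPKM on day 0, 469.7, 119 and 57.9 on day 3, and 404, 101 and 92.0 on day 6. It rose from day 0 to day 3 in WT by 1.43 ± 0.41 (log2, SE; limma adjusted p = 0.027) and in DKI by 3.24 ± 0.77 (adjusted p = 0.020). The other members of this group, *Ifi35*, *Ifi44*, *Xaf1* (an apoptosis factor), *Sp100* (a nuclear body protein), *Phf11d* and *Trim30a*, were not called between genotypes, with differences of 0.32 to 3.02 on day 3 and 0.37 to 2.84 on day 6.

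Over the first 3 days with GM-CSF the genotypes were each compared with their own day 0. In WT cells, 9 of the 35 members tested fell (*Ifi204*, *Ifitm3*, *Ifi205*, *Cmpk2*, *Oas2*, *Rsad2*, *Sp100*, *Trim25* and *Zbp1*) and 4 rose (*Lgals3bp*, *Usp18*, *Herc6* and *Bst2*), beside 22.8% and 20.3% of all genes called lower and higher. *Ifi205* and *Oas2* passed the filter through the day 0 libraries alone, so their fall was built into the selection. All day 3 libraries lay above all day 0 libraries for 5 members and below them for 8, where 28.8% and 32.2% of all genes did so; the same 2 are among the 8. The members' median was -0.40 beside -0.05 for all genes. Without WT day 3 replicate 2 it was -0.11, with 16 of the 35 changes positive, and without replicate 2 of every group -0.03. Without WT day 3 replicate 1 no member rose and 7 fell (18.2% and 19.4% of all genes), and with all 18 libraries none rose and 3 fell (19.9% and 21.9%). In DKI cells, 5 of the 40 members rose (*Ifit1*, *Rtp4*, *Lgals3bp*, *Usp18* and *Ddx58*) and none fell, beside 13.1% and 21.1% of all genes, and the median was 1.57 beside -0.16. In DKI, 18 members had all day 3 libraries above day 0, where 20.6% of all genes did so, and none had all below. Among the 18, *Ifi44* and *Phf11d* passed the filter through the day 3 libraries alone, so their rise was built into the selection. Of the 40, 19 had an unadjusted p under 0.05 in either direction, beside 47.3% of all genes. Without DKI day 3 replicate 1, 7 rose (15.1% of all genes called higher) with a median of 0.90. Without DKI day 3 replicate 3, 26 rose (9.46%). Without replicate 1 of every group, *Lgals3bp* and *Ddx58* rose (13.7% of all genes called higher) and *Sp100* and *Ifitm3* fell (18.5% called lower), with a median of 0.69.

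The difference between these changes was tested directly as genotype by time. It was positive for all 40 members, with a median of 1.79 beside -0.11 for all genes, but no member passed, 13 had an unadjusted p under 0.05 (15.7% of all genes), and 2.91% of all genes were called. Without DKI day 3 replicate 3, 7 members passed, beside 3.29% of all genes called. Without DKI day 3 replicate 1 none passed (3.1% of all genes called), the median was 0.99 and 38 of 40 were positive. Without replicate 1 of every group none passed either (1.68%), with a median of 1.13 and 38 of 40 positive.

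**Figure D3:**
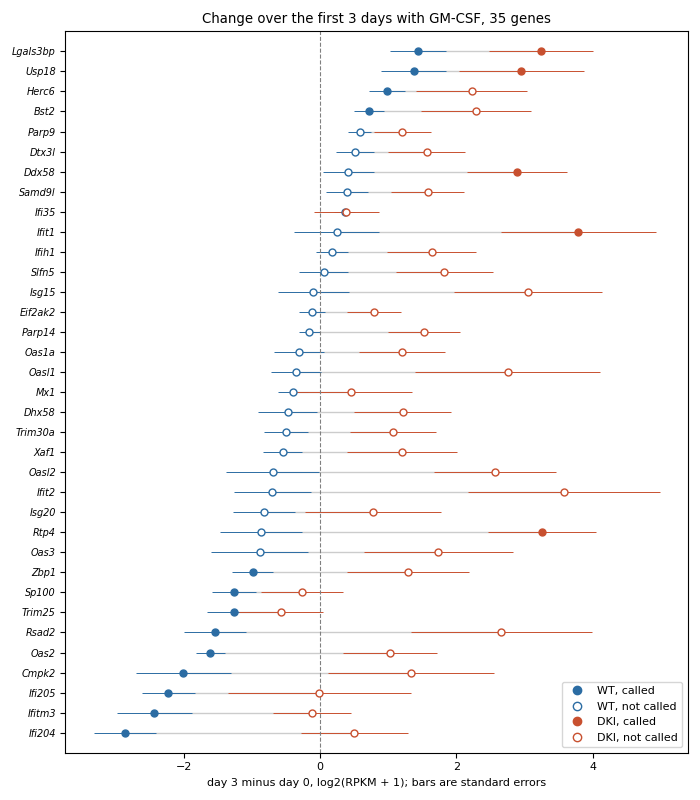
For the 35 members tested in both genotypes, points give the change from day 0 to day 3 in log2(RPKM + 1) for WT (blue) and DKI (orange), with standard errors; filled points were called. The WT points run from -2.86 (*Ifi204*) to 1.43 (*Lgals3bp*), and the widest error bars are in DKI cells.

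From day 3 to day 6 no member was called in either genotype, where 0% of all genes were called, and the median log2 change was -0.26 in WT (32 members tested) and -0.38 in DKI (40 tested). In WT, 3 members had an unadjusted p under 0.05, beside 7.51% of all genes. Without WT day 3 replicate 2 the WT median was -0.61, and 15 of 33 members had an unadjusted p under 0.05, beside 765 of 9601 genes. Without WT day 3 replicate 1 it was -0.03, with 14 of 30 changes positive. For *Bst2*, *Mx1* and *Parp14* all day 6 libraries lay above all day 3 libraries, as in 6.09% of all genes. In DKI no member had an unadjusted p under 0.05, and 1 of the 40 changes was positive. That direction rested on single libraries: without DKI day 3 replicate 1 the median was 0.45, with 38 of 40 positive. The genotype by time test of these days called no member and 0% of all genes.

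The other genes of the pathway were taken from lists of 60 genes, of which 59 were in the table. No ligand passed the filter on low values. *Ifnb1*, which encodes interferon-β, was at 3.57, 0.264 and 0 RPKM in DKI on day 3 and at 0.691, 0 and 0.0375 on day 6. In all WT libraries it was between 0 and 0.0808 RPKM, and in DKI day 0 at 0.167, 0.0602 and 0.0440. The highest values were in replicate 1 of the DKI MDCs, the libraries with the highest member levels, and DKI day 3 replicate 2 was also above 0.102 RPKM. The part of *Ifnb1* in the members' levels was not tested. The other ligands listed did not exceed 0.0960 RPKM (*Ifng*) in any library.

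**Figure D4:**
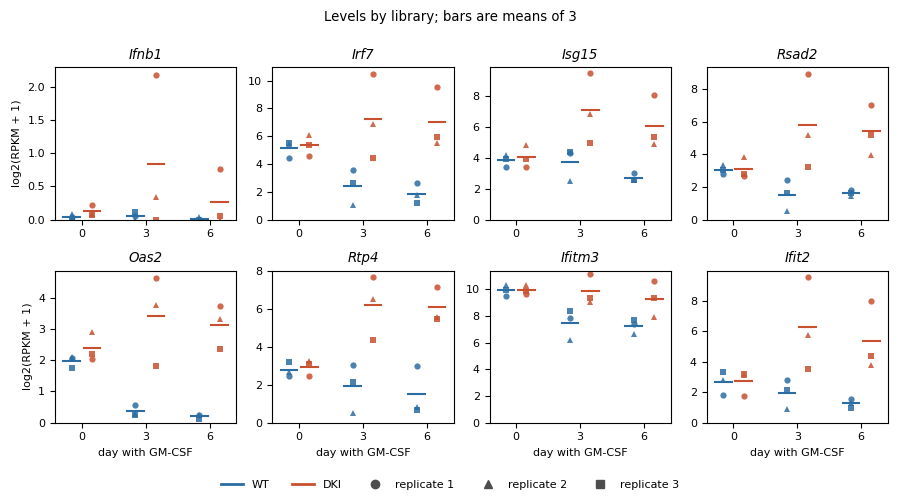
Levels as log2(RPKM + 1) of the ligand gene *Ifnb1*, the factor *Irf7* and 6 members by day; symbols give the replicate, colours the genotype, and bars the mean of 3 libraries. Replicate 1 (circles) is the highest DKI symbol on days 3 and 6 in each panel, and the day 0 symbols of the genotypes overlap.

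Of the 6 receptor genes listed, 5 passed the filter, and *Ifnlr1*, the interferon-λ receptor chain, fell below 0.102 RPKM in some libraries. *Ifnar1* had 25.8, 33.3 and 34.2 RPKM in WT and 41.3, 49.3 and 51.3 in DKI on day 3, and *Ifnar2* had 26.7, 25.3 and 27.3 against 65.7, 37.4 and 40.3. The day 3 groups did not overlap in either gene. Their differences of 0.59 and 0.79 on the log2 scale did not pass (limma adjusted p = 0.093 and 0.096). *Il10rb*, the shared chain of the interferon-λ and interleukin-10 receptors, was higher in DKI on day 3 by 1.39 ± 0.25 (limma adjusted p = 0.028) and on day 6 by 1.44 ± 0.26 (adjusted p = 0.030). With the replicate block neither passed (limma adjusted p = 0.069 and 0.056).

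Among the transducers, *Stat2* had 29.3, 44.4 and 41.9 RPKM in WT and 158, 59.0 and 22.7 in DKI on day 3. *Irf9* had 29.6, 23.8 and 25.9 RPKM against 42.4, 30.0 and 20.9. Both overlapped between genotypes, and neither was called (limma adjusted p = 0.57 and 0.71). *Tyk2* had 64.3, 51.9 and 42.1 RPKM in WT and 41.7, 26.8 and 30.6 in DKI on day 3. Every DKI library lay below every WT library for *Tyk2*, *Irf3*, *Myd88*, *Ticam1* and *Tmem173* on both MDC days. Every DKI library lay above for *Ikbke* and *Tlr3* on both days and for *Jak1* on day 3. *Tlr3* passed the filter through the DKI libraries alone. None of these was called without the replicate block. *Jak2*, a kinase of the GM-CSF and interferon-γ receptors, was lower in DKI: by -2.10 ± 0.18 on day 3 (limma adjusted p = 0.0048) and by -2.38 ± 0.32 on day 6 (adjusted p = 0.016).

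*Irf7* had 20.3, 42.8 and 43.5 RPKM in WT on day 0, 10.5, 1.03 and 5.32 on day 3, and 5.27, 2.41 and 1.26 on day 6. In DKI it had 22.8, 65.8 and 40.5 RPKM on day 0, 1423, 117 and 20.1 on day 3, and 752, 43.9 and 60.0 on day 6. The genotypes overlapped on day 0 and not on the MDC days. *Irf7* was higher in DKI by 5.13 ± 1.07 on day 6 (log2, SE; limma adjusted p = 0.041) and the 4.85 ± 1.51 of day 3 did not pass (adjusted p = 0.11). In WT cells it fell by 2.71 on the log2 scale from day 0 to day 3 (adjusted p = 0.012). *Irf5*, a factor of toll-like receptor signalling, was lower in DKI by -1.15 ± 0.18 on day 3 (limma adjusted p = 0.020) and by -0.95 ± 0.18 on day 6 (adjusted p = 0.036), which did not pass with the replicate block (adjusted p = 0.053).

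Over the whole pathway, 47 genes were tested on day 3, of which 1 was called higher in DKI and 2 lower, and 47 on day 6, of which 2 were higher and 3 lower. Of all genes, 3.21% were called higher and 4.21% lower on day 3, and 2.72% and 4.82% on day 6. The additional lower gene on day 6 was *Socs1*, a feedback inhibitor of JAK kinases, at -1.64 ± 0.27 (limma adjusted p = 0.027). With the replicate block *Socs3*, also an inhibitor of JAK kinases, was called lower on day 6 (limma adjusted p = 0.029) and *Tlr3*, a receptor for double-stranded RNA, was called higher (adjusted p = 0.031), the latter having passed the filter through the DKI libraries alone. None of the 12 tested genes of the interferon-γ type (guanylate-binding proteins, immunity-related GTPases, *Ciita* and chemokines) was called between genotypes on day 3 or day 6, in tests where 3.21% and 2.72% of all genes were called higher. In 8 of these 12 on day 3 and 7 on day 6 all DKI libraries lay above all WT libraries, beside the 13.4% and 10.6% of all genes given above, and *Ciita* lay below on day 3. Of those above, 3 on each day passed the filter through the DKI libraries alone (*Gbp6* and *Iigp1* on both, *Gbp4* on day 3 and *Cxcl10* on day 6), so being higher was built into their selection. *Irgm1*, an immunity-related GTPase, had 274, 61.2 and 28.7 RPKM in DKI on day 3 against 26.7, 10.6 and 20.0 in WT, and *Cxcl10*, a chemokine, had 469, 17.8 and 7.03 against 5.64, 0.314 and 0.904. Both were highest in replicate 1, as the members were. From day 0 to day 3, 12 of the 43 pathway genes tested in WT rose and 10 fell, beside 20.3% and 22.8% of all genes. In DKI 8 of 47 rose and 4 fell, beside 13.1% and 21.1%. Among the genes that rose, *Socs1* and *Ciita* in both genotypes and *Tlr3* and *Gbp4* in DKI passed the filter through day 3 alone. In WT cells *Ifnar2* fell by 1.42 on the log2 scale (limma adjusted p = 0.00028) and *Stat2* rose by 1.79 ± 0.31 (adjusted p = 0.0036).

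Marker genes of other cell types moved with some of these libraries. The summed level of 8 neutrophil markers was 187, 4464 and 288 RPKM in WT on day 3 and 1814, 2802 and 546 in DKI. On day 6 it was 581, 592 and 20.6 RPKM in WT and 3041, 253 and 24.9 in DKI. These sums were made up mostly of *S100a8* and *S100a9*, at 2192 and 1757 RPKM in WT day 3 replicate 2 and 684 and 729 in DKI day 3 replicate 1. Both genes, *Ngp*, *Camp* and *Ltf* were higher in the former library than in the latter. *Elane*, *Mpo* and *Ly6g* were lower, with *Ly6g* at 0.525 RPKM against 7.03. The DKI day 6 library with the highest neutrophil sum was also the highest for the members, whereas WT day 3 replicate 2, with the highest sum of all MDC libraries, was the lowest of the 18 libraries for 20 of the 40 members. Their part in the differences was not tested.

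The summed level of 6 macrophage markers was 424 to 989.8 RPKM in WT on day 3 and 2499.5 to 4385 in DKI, and 7 markers of monocyte-derived dendritic cells summed to 5279.6 to 9606 RPKM in WT against 118 to 457 in DKI. The 7 monocyte markers summed to 3597, 1554 and 3869 RPKM in WT on day 3 and to 15646, 8996 and 20975 in DKI, sums made up mostly of *Lyz2* (12766, 7417 and 18907 RPKM in DKI). In 5 of the 7, all but *Ccr2* and *Fcgr1*, every DKI library was above every WT library. Among the DKI libraries, 4 of the 7 were highest in replicate 1, as the members were: *Ly6c2* (775 RPKM against 49.5 and 73.8), *Fcgr1* (465 against 115 and 81.0), *Csf1r* (905 against 461 and 585) and *Cd14* (176 against 69.4 and 78.5). The other 3, *Lyz2*, *Ccr2* and *Itgam*, were highest in replicate 3. The part of these marker genes in the members' levels was not tested. The 7 markers of plasmacytoid dendritic cells, known for their high output of interferon, summed to 10.2 to 18.6 RPKM in DKI on day 3 and 14.9 to 18.5 in WT. *Siglech*, *Ccr9* and *Klk1* were below 0.1 RPKM in all DKI day 3 libraries, and *Ly6d* did not exceed 0.231 RPKM on day 3. The sums hide opposite markers. *Tcf4* had 15.9, 9.30 and 11.3 RPKM in DKI against 7.22, 7.21 and 8.32 in WT. *Pacsin1* had 0.310, 0.173 and 0.752 RPKM against 8.96, 7.06 and 8.17. *Cox6a2* had 2.24, 0.501 and 0.536 RPKM against 0.387, 0.242 and 1.18. The part of these genes was not tested either. In such bulk samples, more cells of a type and more RNA per cell cannot be told apart, and the genotype cannot be told apart from the kind of cell it yields.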

How the data were processed

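RNA-seq of 18 libraries was analysed, 3 for each genotype on each day. The authors used Subread to place single-end reads on mm10 and featureCounts to count them on RefSeq genes, and deposited RPKM values, as the study's methods say; versions, strandedness and the treatment of multiply mapped reads are not given in the sources used here. All 18 columns were used, with groups from the sample labels. Depth was estimated from the smallest values of single-exon receptor genes, in units of which 68 of 71 further low values were whole, within 0.05 read. The detection limit covers counting error only, whereas the standard errors given are those of the limma fit and measure the spread between libraries.

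Log2(RPKM + 1) values were fitted with limma 3.58.1 (trend, empirical Bayes; R 4.3.3) on the 6 libraries compared (12 for genotype by time), over genes with a mean above 2 RPKM in at least 1 group. Fold changes refer to that scale and understate low genes. Genes were called at a Benjamini-Hochberg adjusted p under 0.05 over all genes tested and a fold above 1.5. The methods describe edgeR on counts, which RPKM does not allow. The series design speaks of 3 independent experiments, and p-values measure the spread between these libraries. The fit was tested on simulated data with the layout of the day 3 genotype comparison (9483 genes). It recovered 60 of 100 genes changed by a factor of 2 and 89 of 100 changed by a factor of 4. Of the 158 genes called, 9 were unchanged. All simulated libraries had the WT day 3 spread. On day 3 the members' median SD on the log2 scale was 0.45 in WT and 1.71 in DKI, so this recovery does not apply to them.

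Same-numbered WT and DKI libraries have consecutive library names and shared deviations from the group means (correlation 0.71 to 0.89 on day 0, 0.15 to 0.37 on day 3 and 0.36 to 0.42 on day 6), so blocked values are given where they change a call. Members, lists and the rule for named genes were chosen with earlier results of these data known. Values in every library are given for up to 6 called members per comparison with the largest change and for the member of each role with the highest mean over the 18 libraries. Alternatives were a pseudocount of 0.1, no filter, all 18 libraries, median centring, quantile normalization, the replicate block and leaving out libraries. Sequences are RefSeq entries of GRCm38.p6. A gene of the pathway lists is not reported here.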

Additional observations from a re-analysis of the deposited data

Results flagged for a closer look

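One result of the pathway differed between the genotypes in its change over time. *Jak2* went from 64.2, 47.0 and 38.4 RPKM on day 0 to 289, 321 and 294 on day 3 in WT cells, and from 62.1, 54.2 and 35.4 to 62.5, 65.3 and 82.4 in DKI cells. The change over time was smaller in DKI by a log2 difference of -2.11 (limma, genotype by time, adjusted p = 0.0077). No member of the 40 met this test.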

How the results depend on the processing

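No gene named with a call turned its direction under the alternatives. With libraries left out, 375 results of single genes stayed on their side of the threshold and 252 lost the call; under the other settings 1 (pseudocount 0.1) to 31 (no filter) did. The number of members called between genotypes on day 3 (1 as reported) was 0 without the filter, with median centring or with the replicate block, 17 with all 18 libraries, and 0 to 8 when libraries were left out. On day 6 (7 as reported) it was 13 with a pseudocount of 0.1, 1 without the filter, 13 with all 18 libraries, 11 with quantile normalization, 14 with the replicate block and 0 to 15 without single libraries or numbers (0 without WT replicate 3, 1 without WT replicate 1 or DKI replicate 3, 3 without WT replicate 2, 15 without DKI replicate 2). Calls over all genes moved too. On day 6, 268 were higher as reported, 292 with a pseudocount of 0.1 and 342 with quantile normalization. They were 60 without the filter, 508 with all 18 libraries and 285 with the replicate block. Without WT replicate 3, 1 or 2 or DKI replicate 3, 1 or 2 they were in turn 31, 38, 229, 27, 119 and 329, and 0 without number 3. On day 3 (313 as reported) they were 153 without the filter, 311 with median centring, 83 to 90 without a WT library, and 0 without number 2 or 3. From day 0 to day 3 the number of members called in WT (13 as reported) was 6 without the filter, 3 with all 18 libraries and 8 with the replicate block. In turn, 4242 of 16130, 4349 of 10417 and 3788 of 9938 genes were called, against 4283 of 9938 as reported. When libraries were left out it was 6 to 11. It was 7 without WT day 0 replicate 2 or day 3 replicate 1 and 6 without day 3 replicate 3, where 3619, 3735 and 3363 of all genes were called. In DKI (5 as reported) it was 2, 19, 8 with quantile normalization, 3 with the replicate block and 0 to 26 (0 without DKI day 0 replicate 1 or replicate 3, 1 without replicate 2, 2 without DKI day 3 replicate 2), where 921, 1061, 750 and 995 of all genes were called higher against 1297. Same-numbered libraries of days 0 and 3 did not deviate together (lowest correlation -0.21 in WT and -0.01 in DKI), so that block has no pairing behind it. For genotype by time from day 0 to day 3 the number of members called was 1 (*Oas2*) with a pseudocount of 0.1, where 243 of 10212 genes were called, and 0 to 7 without libraries. It was 0 throughout in the other comparisons. Leaving out 1 replicate number from all groups was added after the data were seen. RPKM keeps no read totals, so depth limits genes as low as *Ifnb1*.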
